A study of Mus musculus with 72 samples.

Results

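Cirbp and Rbm3 encode the cold-inducible RNA-binding proteins of the mouse, and their transcripts were described across 72 liver libraries. The members are the 2 rows, of 55573 genes in the count table, whose Ensembl identifiers map to these symbols. Cirbp (ENSMUSG00000045193) lies on chromosome 10 of GRCm38 from 80165985 to 80172786 on the plus strand, and Rbm3 (ENSMUSG00000031167) on chromosome X from 8138975 to 8145880 on the minus strand. Livers came from adult male C57BL/6 mice (C57BL/6J in the study's methods) in 4 groups of 18. WT mice carried loxP-flanked Bmal1 (Bmal1 fl/fl), and LKO mice carried Bmal1 fl/fl with Albumin-cre, a Cre driven by the hepatocyte promoter of albumin, so that the floxed allele is common to all groups and loss of Bmal1 cannot be told apart from the presence of Cre. Both genotypes were kept either with microbes under specific pathogen-free (SPF) conditions or germ free (GF) in flexible film isolators, so that microbial status and housing cannot be told apart. All mice were housed singly in 12 h light and 12 h dark with autoclaved chow at all times, and 3 mice per group were killed at each of 6 zeitgeber times (ZT, hours after lights on): ZT2, ZT6, ZT10, ZT14, ZT18 and ZT22.

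The protein of either gene has an RNA recognition motif followed by a glycine-rich tail, and both transcripts are known to rise when mammalian cells are mildly cooled. CIRBP binds transcripts of clock genes and influences where they are polyadenylated, and RBM3 supports translation at low temperature. Mice are active in the dark, and their body temperature is lower in the light phase, when Cirbp transcripts are known to be abundant in liver. Body temperature is not among the measurements used here, so the question addressed is when and in which group each transcript was high, not whether temperature set its level.

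The sequence before the first RefSeq start of Cirbp is shown because its response to cold has been studied through such upstream letters. This RefSeq start lies inside the Cirbp gene of the counting annotation, which begins at 80165985. The 250 bases upstream of that start in RefSeq (GRCm38.p6, chr10:80167589-80167838, plus strand) are printed 5′ to 3′, with matches to the searched motifs on either strand in capitals.

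Cirbp upstream: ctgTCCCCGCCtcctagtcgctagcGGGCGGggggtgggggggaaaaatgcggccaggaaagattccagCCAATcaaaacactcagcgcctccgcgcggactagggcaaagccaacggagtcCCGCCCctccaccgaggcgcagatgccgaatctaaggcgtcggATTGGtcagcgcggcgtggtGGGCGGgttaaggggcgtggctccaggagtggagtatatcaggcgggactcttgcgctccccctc

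This stretch held 3 matches to the GC box GGGCGG, which 32.7% of all 32851 upstream stretches of the same length hold, and 2 matches to CCAAT, which 33.8% hold. The octamer TCCCCGCC, known from studies of a cold-responsive element of Cirbp, occurred once, 247 bases before the start, and 4.64% of all stretches hold it; it was searched after the sequence had been seen. No match was found to the E-box CACGTG (6.02% of stretches), to the heat shock element core GAANNTTC (6.69%) or to the nuclear receptor motif AGGTCA (14.0%). None of the matches overlapped another. A match describes letters in this window and not a site in use. The stretch of the same length before the second RefSeq start of Cirbp held 4 matches to the GC box. It held 0 matches to CCAAT, to the octamer and to the other motifs. Rbm3 is named without a promoter.

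The coding sequences show how closely the members are related. Cirbp has 519 coding bases and Rbm3 465 in their RefSeq-matched GENCODE vM21 transcripts, and a global alignment paired 453 bases, of which 332 (73.3%) were identical. The most alike 60-base stretch without gaps runs from base 87 to base 146 of either coding sequence, with 47 identical bases in lower case and 13 differing bases in capitals.

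Cirbp coding: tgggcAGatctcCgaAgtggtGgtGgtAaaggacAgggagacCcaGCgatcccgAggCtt

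Rbm3 coding: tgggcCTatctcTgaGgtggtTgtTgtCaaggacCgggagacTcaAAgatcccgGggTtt

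Both genes also have transcripts that are not translated in full: GENCODE vM21 lists 1 nonsense-mediated decay and 4 retained-intron transcripts among 7 of Cirbp, and 2 of either kind among 11 of Rbm3. The counts sum all of these, so a change in splicing and a change in amount cannot be told apart.

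Libraries held 17369927 to 22076113 counts each, with a median of 19106726. Cirbp had 117 to 608 counts per library and Rbm3 79 to 319. No exon base of Cirbp is shared with another gene, while 94 exon bases of Rbm3 (2.0%) overlap the antisense gene Rbm3os, which had at most 7 counts in a library. Values below are CPM, the reads of a gene relative to the size of its library, scaled by TMM factors, which adjust for a few abundant genes that take unequal shares of a library. Hepatocyte markers were present in all groups. Alb (albumin) had medians of 83710 CPM in SPF WT, 36410 in SPF LKO, 104300 in GF WT and 32080 in GF LKO libraries. In the same order, the medians of Apoa1 were 7959, 8072, 11860 and 11890 CPM. Those of Cps1 were 4092, 4751, 5776 and 5977, and those of Serpina1c 910.7, 978.6, 1154 and 1362. Ttr (5568, 5381, 6891 and 5880) and Cyp2e1 (7734, 7272, 9357 and 7621) had lower medians in LKO than in WT. The summed levels of 6 Kupffer cell, 6 endothelial, 6 stellate cell, 6 cholangiocyte, 7 leukocyte and 5 erythroid markers overlapped between all 4 groups, and none of these markers was at 0 in all libraries. Cholangiocyte markers had summed medians of 54.2 CPM in SPF WT, 70.9 in SPF LKO, 44.1 in GF WT and 91.2 in GF LKO livers. They were thus higher in LKO in both SPF and GF livers, while Rbm3 was called higher in LKO in GF livers alone. From SPF LKO to GF LKO the cholangiocyte median rose, while Rbm3 was lower. The marker lists' part in the results was not tested. In whole liver, fewer cells that express a gene and less RNA per cell cannot be told apart.

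A library can be checked against its labels by clock genes, and 4 libraries went against theirs. Npas2 encodes a partner of the clock protein CLOCK. At ZT14 replicate 2 labelled SPF LKO held it at 0.219 CPM, and at ZT18 replicate 1 labelled SPF LKO held it at 1.82 CPM. In the other SPF LKO libraries of these times it was between 24.0 and 36.7 CPM. Alb stood at 82850 and 102100 CPM in these 2 libraries, beside at most 49660 in the remaining SPF LKO sets at ZT14 and ZT18. Arntl, the listed symbol of Bmal1, stood at 2.12 CPM in replicate 3 labelled SPF WT at ZT14, beside 15.8 and 19.5 in the others of its set. Replicate 3 labelled GF WT at ZT6 held it at 8.21 CPM, beside 1.62 and 2.43. All 4 stayed in the groups that their labels name, and results are also given without them.

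Cirbp was higher in the light phase than in the dark phase in all 4 groups, by medians of 9 libraries each. The light and dark medians were 16.96 and 11.6 CPM in SPF WT, 21.4 and 12.1 in SPF LKO, 12.1 and 9.04 in GF WT, and 18.9 and 9.54 in GF LKO livers, and the ranges overlapped in each group. In SPF WT livers it was at 16.5, 22.4 and 12.6 CPM at ZT2, at 16.9, 19.4 and 18.2 CPM at ZT6, and at 9.38, 10.3 and 6.42 CPM at ZT18. The ZT6 libraries all lay above the ZT18 libraries, and the mean fell from 18.2 ± 1.23 (SD, n = 3) to 8.71 ± 2.03 (SD, n = 3) between these times. At ZT10 the 3 libraries spread from 11.1 to 19.3 CPM and at ZT22 from 11.1 to 18.9 CPM, so that both sets overlapped light and dark values. The set at ZT14 was narrow, with 11.7, 11.7 and 13.9 CPM, the last in the library that goes against its label.

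In SPF LKO livers Cirbp had its highest values of the series. At ZT6 it was at 24.3, 22.2 and 26.9 CPM, all above the 3 SPF WT libraries of that time. At ZT14 it was at 11.6, 12.4 and 11.2 CPM and at ZT18 at 17.9, 10.8 and 9.52 CPM. The 12.4 at ZT14 and the 17.9 at ZT18 belong to the libraries that go against their labels, and the remaining dark-phase values of these times lay between 9.52 and 11.6 CPM. The set at ZT22 ran from 12.1 to 19.6 CPM.

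In GF WT livers Cirbp had its highest values at ZT2, with 16.7, 17.6 and 21.01 CPM. By ZT6 it stood at 11.99, 10.8 and 11.1 CPM, below every ZT2 library, and the third of these values belongs to the library that goes against its label. Means from ZT10 to ZT22 ran from 8.34 ± 1.37 (SD, n = 3) at ZT18 to 11.8 ± 0.494 (SD, n = 3) at ZT10. In GF LKO livers the order differed, with 10.96, 14.6 and 17.7 CPM at ZT2, then 20.4, 22.7 and 22.2 CPM at ZT6, and 18.9, 23.02 and 14.1 CPM at ZT10. From ZT14 on, all 9 GF LKO libraries lay between 7.54 and 11.2 CPM. The lowest of the 9 light-phase libraries of GF LKO mice, at 10.96 CPM, was below the highest of the 9 dark-phase libraries.

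**Figure D1:**
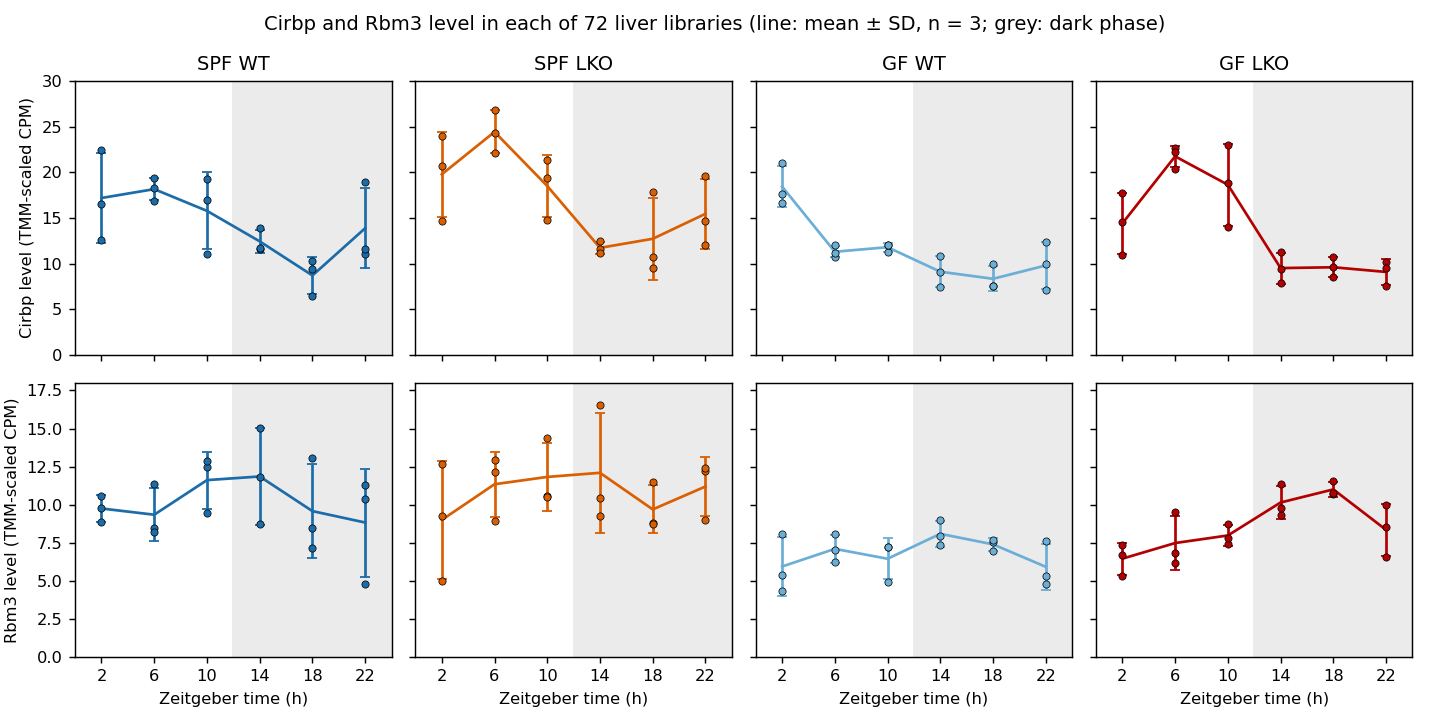
Level of Cirbp (upper row) and Rbm3 (lower row) in TMM-scaled CPM against zeitgeber time in hours, with 1 point per liver, lines through means and bars of ± SD (n = 3). In each of the 4 groups the Cirbp means before ZT12 lie above those after it. The GF WT mean is 18.4 at ZT2, 11.3 at ZT6 and 11.8 at ZT10, and the GF LKO mean is 14.4 at ZT2 and 21.8 at ZT6. Rbm3 is lower in the GF than in the SPF panels.

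A 24 h cosine was fitted to the counts of each group by edgeR's quasi-likelihood test, adjusted over all genes tested. Cirbp was called rhythmic in all 4 groups. The peak-to-trough difference was 0.90 on the log2 scale in SPF WT (1.87-fold, adjusted p = 0.0144), 0.99 in SPF LKO (1.99-fold, adjusted p = 0.00358), 0.89 in GF WT (1.86-fold, adjusted p = 0.00671) and 1.36 in GF LKO livers (2.56-fold, adjusted p = 2.79e-05). Of all genes tested, 15% were called rhythmic in SPF WT, 21.2% in SPF LKO, 26.7% in GF WT and 35% in GF LKO livers, so a call alone is common in these data. The fitted peak fell at ZT5.34 in SPF WT, ZT4.91 in SPF LKO, ZT3.89 in GF WT and ZT6.79 in GF LKO livers. A least squares fit of log2 CPM gave standard errors of 0.90, 0.73, 0.97 and 0.53 h for these peak times in the same order, and of 0.22, 0.20, 0.21 and 0.19 for the peak-to-trough differences on the log2 scale. The call in GF LKO livers held under all alternatives run. In SPF WT livers the call was lost with ZT as a factor (adjusted p = 0.0798), where 1.04 is the log2 range of fitted time means, not a cosine difference. It was also lost without ZT6 (1.01, adjusted p = 0.0705), without ZT18 (0.64, adjusted p = 0.204), and without replicate 1 (0.97, adjusted p = 0.102) or 2 (0.77, adjusted p = 0.242). In GF WT livers it was lost without ZT2 (0.48, adjusted p = 0.0876), without ZT18 (0.84, adjusted p = 0.0602) and without replicate 2 (0.82, adjusted p = 0.101). In SPF LKO livers it was lost without replicate 3 (0.81, adjusted p = 0.0922). Without the 2 libraries that go against their labels, the SPF LKO difference was 1.19 (adjusted p = 0.000664).

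Rbm3, whose product resembles that of Cirbp, followed another course. In GF LKO livers it was at 5.29, 6.68 and 7.38 CPM at ZT2 and at 10.7, 10.8 and 11.6 CPM at ZT18, without overlap. The GF LKO rhythm had a peak-to-trough difference of 0.70 on the log2 scale (1.63-fold, adjusted p = 0.00308) and a fitted peak at ZT16.02, with a standard error of 0.77 h from the least squares fit. This peak is in the dark phase, while the Cirbp peak of the same livers is in the light phase. Under all alternatives run the GF LKO call held, with adjusted p of at most 0.0444.

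In the other groups Rbm3 was not called rhythmic, with 0.40 on the log2 scale in SPF WT (adjusted p = 0.38), 0.28 in SPF LKO (adjusted p = 0.594) and 0.37 in GF WT livers (adjusted p = 0.279). With 1 replicate or library left out these values ran from 0.18 to 0.74 in SPF WT (lowest without replicate 1, highest without replicate 3), from 0.0079 to 0.63 in SPF LKO and from 0.16 to 0.57 in GF WT livers (in both lowest without replicate 2 and highest without replicate 3), with no call. Fitted peaks lay at ZT12.01, ZT11.78 and ZT13.49, with least squares standard errors of 2.22, 3.01 and 1.86 h. Libraries of 1 set differed by as much as the fitted rhythm: at ZT14 the SPF WT livers held 15.1, 11.8 and 8.70 CPM, and at ZT2 the SPF LKO livers held 9.29, 4.99 and 12.7 CPM. Over the 18 GF LKO libraries the log2 levels of Cirbp and Rbm3 had a Pearson r of -0.45 and a Spearman rho of -0.52. Pearson r was -0.28 in GF WT, 0.13 in SPF WT and 0.08 in SPF LKO livers, and over all 72 libraries r and rho were 0.14 and 0.15, given as a description of libraries that share groups and times.

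**Figure D2:**
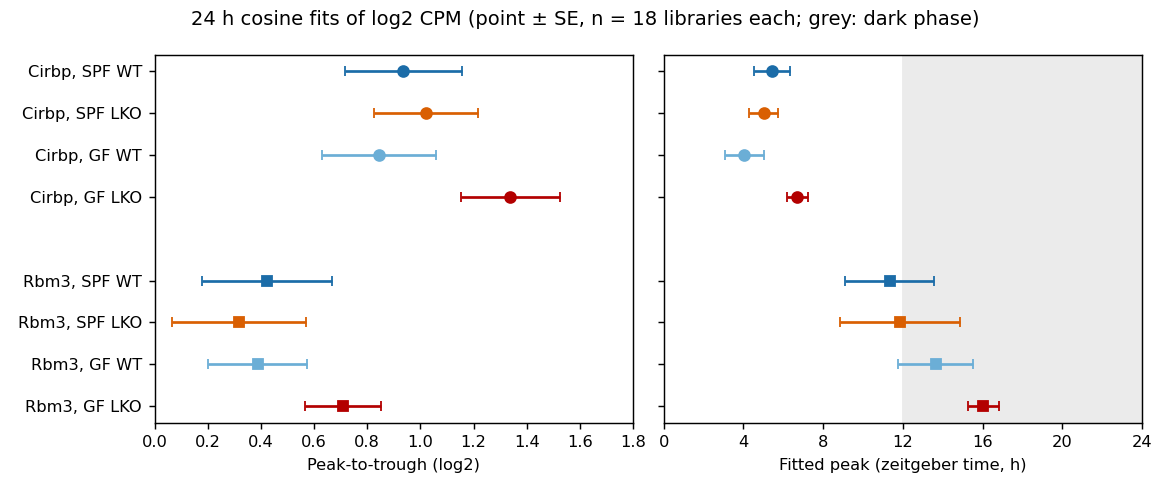
Peak-to-trough difference on the log2 scale (left) and fitted peak in hours of zeitgeber time (right) from least squares fits of log2 CPM, with bars of ± SE over 18 libraries per group. Cirbp peaks from ZT4.04 to ZT6.71 with 0.84 to 1.34 on the log2 scale, and Rbm3 from ZT11.34 to ZT16.03 with 0.32 to 0.71, of which GF LKO is the largest.

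Whether the 24 h pattern differed between groups was tested as the difference of the cosine terms. No difference of Cirbp or Rbm3 was called by edgeR among 8 tests, the unadjusted p was under 0.05 in 2 of them, and DESeq2 called 1. The largest concerned Cirbp in GF LKO against GF WT livers, where the difference curve spanned 0.95 on the log2 scale (adjusted p = 0.0756). It passed the threshold with DESeq2 (0.93, adjusted p = 0.0444) and with no filter on low counts (0.94, adjusted p = 0.0255). It also passed with ZT as a factor (adjusted p = 0.0133), where 1.31 is the range of the difference over the times, not a cosine span. Without replicate 1, 2 or 3 it was not called (adjusted p = 0.234, 0.514 and 0.114). The same held without the GF WT library that goes against its label (adjusted p = 0.102). For Cirbp the other comparisons gave 0.14 for SPF LKO against SPF WT, 0.33 for GF WT against SPF WT and 0.66 for GF LKO against SPF LKO, with adjusted p of 0.955, 0.813 and 0.208. Rbm3 gave 0.11, 0.45, 0.15 and 0.63 for SPF LKO against SPF WT, GF LKO against GF WT, GF WT against SPF WT and GF LKO against SPF LKO, with adjusted p from 0.284 to 0.978. Of all genes tested, 1.02%, 5.81%, 0.0355% and 4.45% were called in these 4 comparisons, in the order given for Rbm3.

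At single times the clearest difference was that of Cirbp at ZT6 between the genotypes. The GF LKO livers, at 20.4, 22.7 and 22.2 CPM, stood above the GF WT livers, at 11.99, 10.8 and 11.1 CPM, by 0.94 ± 0.11 on the log2 scale (SE, n = 3 per group, edgeR adjusted p = 0.000113), and 11.7% of all genes were called in this comparison. It was called under all alternatives run, with adjusted p of at most 0.00249, and without the library that goes against its label it was 0.93 (adjusted p = 0.000342). In SPF livers Cirbp was higher in LKO at ZT6 by 0.43 ± 0.11 (SE, n = 3 per group, edgeR adjusted p = 0.0267), where 7.26% of all genes were called. Leaving out 1 replicate number of SPF WT or SPF LKO took this call to adjusted p of 0.0296 to 0.102, and it was lost without SPF WT replicate 1 (0.0883) or 3 (0.0515) and without SPF LKO replicate 1 (0.0545) or 3 (0.102).

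Against SPF WT, GF WT livers had less Cirbp at ZT6, with a log2 fold change of -0.67 ± 0.11 (SE, n = 3 per group, edgeR adjusted p = 0.0342) where 2.62% of genes were called. The call was lost with only the 6 libraries of both groups in the fit (adjusted p = 0.134). It was also lost without SPF WT replicates 2 (0.0845) or 3 (0.102), GF WT replicates 1 (0.0732) or 2 (0.0867) or, among groups that share the estimate of spread, SPF LKO replicates 2 (0.0594) or 3 (0.0566). At ZT10 Cirbp in GF LKO livers did not overlap GF WT livers, and the difference of 0.66 ± 0.21 (SE, n = 3 per group, edgeR adjusted p = 0.0519) lay just outside the threshold. It was past it with DESeq2 (adjusted p = 0.0236), with no filter on low counts (0.000765) and with the 6 libraries of both groups alone (0.0331). Without GF WT replicate 1, 2 or 3 the adjusted p was 0.142, 0.127 and 0.109. Without GF LKO replicate 1 or 2 it was 0.111 and 0.212, and without GF LKO replicate 3 it was 0.0221. Between GF LKO and SPF LKO livers, Cirbp was called at 0 of 6 times by edgeR, with 1 unadjusted p under 0.05, and at 1 by DESeq2.

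For Rbm3 the called time was ZT10 in GF WT against SPF WT livers. The GF WT libraries held 7.22, 7.22 and 4.89 CPM and the SPF WT libraries 12.5, 12.9 and 9.47 CPM, without overlap. The log2 fold change was -0.85 ± 0.19 (SE, n = 3 per group, edgeR adjusted p = 0.0301), where 2.89% of genes were called. It was lost without SPF WT replicate 1 (adjusted p = 0.0699) or 2 (0.0793) and without GF WT replicate 2 (0.0719) or 3 (0.116), and with the 6 libraries of both groups alone (0.0664). Rbm3 was called at 0 of 6 times in the other 3 comparisons by edgeR and by DESeq2, with 0 unadjusted p under 0.05 for SPF LKO against SPF WT, 1 for GF LKO against GF WT and 2 for GF LKO against SPF LKO.

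Groups of 3 did not overlap for Cirbp in 6 and for Rbm3 in 7 of 24 comparisons at single times, where 10.5% to 34.8% of all genes did not overlap. The share of genes called at ZT2, ZT6, ZT10, ZT14, ZT18 and ZT22 was 6.89%, 7.26%, 11.9%, 0%, 0.015% and 3.31% for SPF LKO against SPF WT and 4.21%, 11.7%, 13.1%, 6.1%, 8.43% and 4.44% for GF LKO against GF WT. It was 10.1%, 2.62%, 2.89%, 0.0751%, 0.983% and 0.516% for GF WT against SPF WT and 8.92%, 0.309%, 0.982%, 0.0601%, 3.71% and 2.25% for GF LKO against SPF LKO. At ZT14, where edgeR called 0, 1484 genes had an unadjusted p under 0.05. DESeq2 called 141 there, and edgeR called 743 without the libraries that go against their labels.

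**Figure D3:**
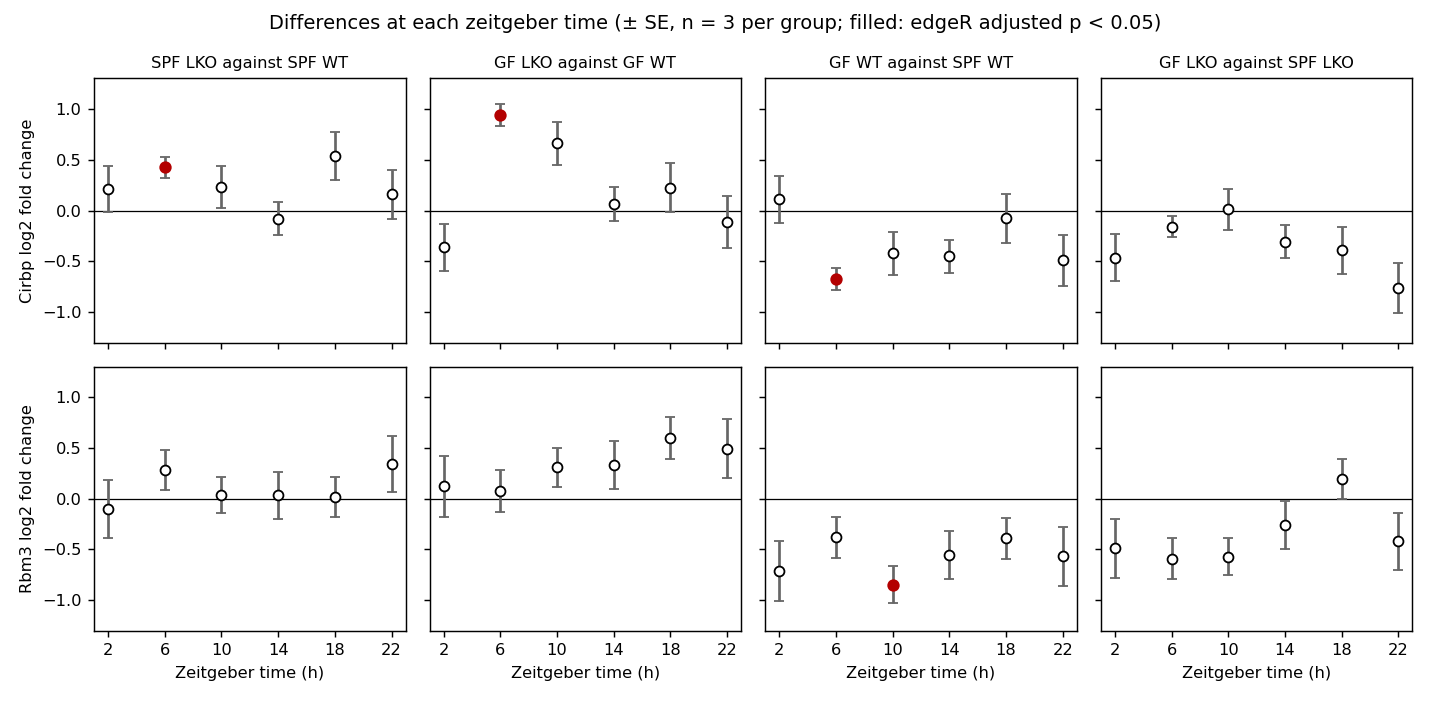
Log2 fold change of Cirbp (upper row) and Rbm3 (lower row) at each zeitgeber time in hours for 4 pairs of groups, with bars of ± SE (n = 3 per group) and filled points where the edgeR adjusted p was under 0.05. Filled are Cirbp at ZT6 in 3 panels (0.43, 0.94 and -0.67) and Rbm3 at ZT10 in GF WT against SPF WT (-0.85).

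With all times together, Rbm3 was lower in GF than in SPF livers of either genotype. Its levels were in the order SPF LKO (10.9 ± 2.598 CPM, SD, n = 18), SPF WT (10.2 ± 2.46), GF LKO (8.56 ± 1.90) and GF WT (6.81 ± 1.33), of which the SPF groups did not differ beyond their spread. It ranged from 4.76 to 15.1 CPM (median 10.1) in SPF WT and from 4.33 to 8.98 CPM (median 7.22) in GF WT livers. The ranges overlapped. The log2 fold change of GF WT against SPF WT was -0.59 ± 0.11 (SE, n = 18 per group, edgeR adjusted p = 9.76e-05), and it was below 0 at 6 of 6 times. It was called under all alternatives run, with adjusted p of at most 0.0107, and without the doubted libraries of both groups it was -0.62.

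In LKO livers Rbm3 ranged from 4.99 to 16.6 CPM (median 10.5) under SPF and from 5.29 to 11.6 CPM (median 8.63) under GF conditions. The log2 fold change was -0.35 ± 0.11 (SE, n = 18 per group, edgeR adjusted p = 0.0145), and it was below 0 at 5 of 6 times. Without replicate 1 it was -0.20 (adjusted p = 0.247) and without replicate 3 it was -0.40 (adjusted p = 0.0531). Between GF LKO and GF WT livers Rbm3 was higher in LKO by 0.33 ± 0.10 (SE, n = 18 per group, edgeR adjusted p = 0.0106) and above 0 at 6 of 6 times. Without replicate 2 this difference was 0.24 (adjusted p = 0.201) and without replicate 3 it was 0.30 (adjusted p = 0.11). Between SPF LKO and SPF WT livers it was 0.10 ± 0.12 (adjusted p = 0.584). The genotype difference in GF minus that in SPF livers was 0.23 ± 0.16 (SE, edgeR adjusted p = 0.923), so a difference between the microbial states was not shown. It was 0.39 without replicate 1 and 0.11 without replicate 2.

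Cirbp levels over all times were in the order SPF LKO (17.1 ± 5.36 CPM, SD, n = 18), SPF WT (14.4 ± 4.33), GF LKO (13.8 ± 5.50) and GF WT (11.5 ± 3.72), and the ranges of all 4 groups overlapped. The GF WT against SPF WT fold change was -0.34 ± 0.14 on the log2 scale (SE, n = 18 per group, edgeR adjusted p = 0.0657) and that of GF LKO against SPF LKO was -0.31 ± 0.16 (adjusted p = 0.132). With ZT as a factor these were -0.35 (adjusted p = 0.00489) and -0.35 (adjusted p = 0.00324), past the threshold. The genotype differences were 0.26 ± 0.14 in SPF (adjusted p = 0.201) and 0.27 ± 0.16 in GF livers (adjusted p = 0.21), and with ZT as a factor they had adjusted p of 0.0573 and 0.0749. Without replicate 1 the SPF genotype difference was 0.06 (adjusted p = 0.87) and without replicate 2 it was 0.39 (adjusted p = 0.131). The GF LKO against SPF LKO fold change was -0.18 without replicate 1 (adjusted p = 0.553). The genotype difference in GF minus that in SPF was 0.01 ± 0.22 (SE, edgeR adjusted p = 1).

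Over all genes tested, 23.1% were called for SPF LKO against SPF WT, 30.8% for GF LKO against GF WT, 31.8% for GF WT against SPF WT, 36.4% for GF LKO against SPF LKO, and 0.438% for the difference of the genotype effects. Scaling by total counts alone, in place of TMM, moved the median log2 fold change of all genes from 0.01 to 0.18 for GF LKO against GF WT and from -0.02 to -0.19 for GF WT against SPF WT. The share of calls that were higher moved with it, from 50.5% to 87.4% and from 44.5% to 7.1%, and from 50.2% to 80.4% for SPF LKO against SPF WT and from 49.5% to 17.9% for GF LKO against SPF LKO. For the difference of the genotype effects it moved from 27.1% to 50% of few calls. Changes given here are relative to the TMM scale, on which these medians were near 0. Under total counts the Rbm3 fold change was 0.51 for GF LKO against GF WT (adjusted p = 7.8e-05) and 0.20 for SPF LKO against SPF WT (adjusted p = 0.21). That of GF WT against SPF WT was -0.77 and that of Cirbp -0.52 (adjusted p = 0.00516). The summed level of 6 hepatocyte markers, most of it Alb, ran from 85380 to 134900 CPM in SPF WT, from 47690 to 130800 in SPF LKO, from 118000 to 173700 in GF WT and from 56840 to 81330 in GF LKO livers. Its part in the level differences was not tested.

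Between the members, Cirbp was the more abundant transcript per length. Its mean was 5.45 ± 1.96 CPM per kb of exon (SD, n = 72) and that of Rbm3 1.94 ± 0.556, above 69.1% and 47.4% of the 14636 genes kept. These lengths join all annotated exons, of which a given transcript uses a part.

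**Figure D4:**
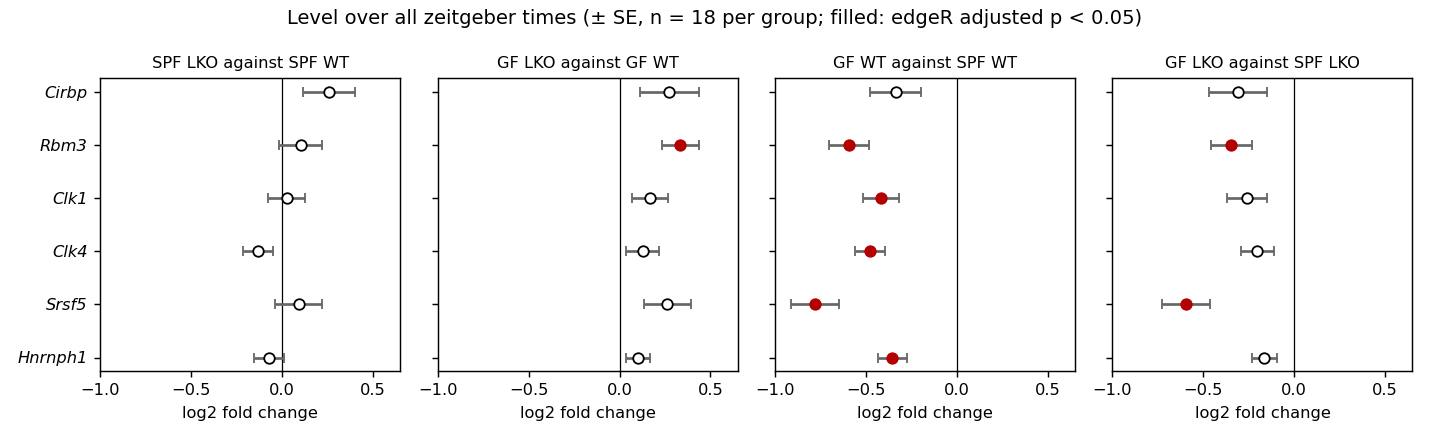
Log2 fold change over all zeitgeber times for the members and 4 splicing genes in 4 pairs of groups, with bars of ± SE (n = 18 per group) and filled points where the edgeR adjusted p was under 0.05. In GF WT against SPF WT the Rbm3 point is at -0.59 and Srsf5 at -0.78, with Clk1, Clk4 and Hnrnph1 from -0.48 to -0.36.

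The splicing of Cirbp and Rbm3 is known to follow temperature through kinases of the CLK family, which phosphorylate SR splicing factors, and a list of 15 such genes was described beside the members. In GF WT against SPF WT livers, 9 of 15 were lower and 0 higher, with a median log2 fold change of -0.32, beside 17.7% lower and 14.2% higher of all genes and a median of -0.02. The kinase gene Clk1 was lower by -0.42 ± 0.10 (SE, n = 18 per group, edgeR adjusted p = 0.00154) and Clk4 by -0.48 ± 0.082 (adjusted p = 3.68e-05). The SR protein gene Srsf5 was lower by -0.78 ± 0.13 (adjusted p = 2.15e-05), and Hnrnph1, a splicing factor of the hnRNP family, by -0.36 ± 0.08 (adjusted p = 0.000903). In GF LKO against SPF LKO livers 5 of the 15 were lower and 1 higher, with a median of -0.17, beside 18.4% and 18.1% of all genes. Srsf5 had -0.60 ± 0.13 there (adjusted p = 0.000697). Clk1 (-0.26, adjusted p = 0.0507), Clk4 (-0.20, adjusted p = 0.0723) and Hnrnph1 (-0.165, adjusted p = 0.0607) were not called there by edgeR. Between the genotypes, 0 of 15 were called in SPF livers by edgeR and by DESeq2, with 0 at an unadjusted p under 0.05, and 1 was higher in GF livers. Of all genes, 11.6% were higher and 11.5% lower in SPF LKO, and 15.6% higher and 15.2% lower in GF LKO livers.

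The same list held 3, 4, 5 and 8 rhythmic genes of 15 in SPF WT, then SPF LKO, GF WT and GF LKO livers. These are 20%, 26.7%, 33.3% and 53.3% of the list, beside 15%, 21.2%, 26.7% and 35% of all genes. Srsf5 was called in SPF LKO, GF WT and GF LKO livers, with peaks at ZT2.7, ZT1.9 and ZT1.7 and peak-to-trough differences of 0.83, 0.73 and 0.98 on the log2 scale. In SPF WT livers it had 0.47 (adjusted p = 0.371). Clk4 was called in GF LKO livers with a peak at ZT21.7 (0.51, adjusted p = 0.0409), while Clk1 and Hnrnph1 were called in no group.

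Heat shock genes are known to rise when body temperature is high, and 24 genes of this response were described as a counterpart. Of these, 12 were rhythmic in SPF WT, 18 in SPF LKO, 14 in GF WT and 19 in GF LKO livers, with median peak-to-trough differences of 0.76, 0.86, 0.63 and 0.73 on the log2 scale, beside 0.34, 0.35, 0.36 and 0.37 over all genes. The peaks of those called lay between ZT12 and ZT18 for 12 of 12 genes in SPF WT, 17 of 18 in SPF LKO and 10 of 14 in GF WT livers. In GF LKO livers 9 of 19 lay there and 10 after ZT18. Of all genes called, 539 of 2087 in SPF WT, 1183 of 2971 in SPF LKO, 806 of 3523 in GF WT and 1372 of 4718 in GF LKO livers peaked between ZT12 and ZT18. Fkbp4, a co-chaperone of steroid receptors, peaked at ZT17.3, ZT17.6, ZT19.6 and ZT20.4 in the 4 groups in the same order, with 0.93, 0.82, 0.79 and 0.95 on the log2 scale. Hspd1, which encodes the mitochondrial chaperonin, was called in SPF WT (ZT16.4) and GF WT livers (ZT16.3), and Hspa9, a mitochondrial chaperone, in the same groups at ZT14.5 and ZT16.4. Hsp90ab1, which encodes a form of HSP90, was called in SPF LKO (ZT17.6) and GF WT livers (ZT17.2).

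By level, 5 heat shock genes were higher and 1 lower in GF WT against SPF WT livers, and 6 higher and 1 lower in GF LKO against SPF LKO livers, with medians of 0.13 and 0.14. The list was thus called for 25% and 29.2% of its genes, no more often than the 31.8% and 36.4% of all genes. Hspd1 was higher by 0.23 ± 0.06 (SE, n = 18 per group, edgeR adjusted p = 0.00337) and 0.20 ± 0.053 (adjusted p = 0.00341), the opposite direction to Rbm3. Hspa9 was higher by 0.17 ± 0.047 and 0.11 ± 0.04 (adjusted p = 0.00584 and 0.0246). Between the genotypes 1 of 24 was lower in SPF LKO and 2 of 24 in GF LKO livers, and 0 were higher in either. These are 4.17% and 8.33% of the list, beside 11.5% and 15.2% of all genes that were lower. An unadjusted p under 0.05 was found for 5 and 7 of the 24.

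Proteins with a bacterial type of cold-shock domain form a separate family, of which 4 of 8 genes passed the filter on low counts for levels. Ybx3, a cold-shock domain protein that binds RNA, was higher in LKO by 0.57 ± 0.061 in SPF (SE, n = 18 per group, edgeR adjusted p = 6.16e-09) and by 0.59 ± 0.072 in GF livers (adjusted p = 2.42e-08). It was also higher by 0.20 ± 0.07 in GF WT against SPF WT livers (adjusted p = 0.0271) and by 0.23 ± 0.063 in GF LKO against SPF LKO livers (adjusted p = 0.00478). Ybx1 and Carhsp1 were not called by level in any of the 4 comparisons. Rhythms were called for 1, 1, 2 and 3 of the 4 in SPF WT, then SPF LKO, GF WT and GF LKO livers. Of all genes, 15%, 21.2%, 26.7% and 35% were called, and a list of 4 is too short to set against these shares. Carhsp1, a calcium-regulated phosphoprotein, peaked in the light phase as Cirbp did, at ZT6.9, ZT5.4 and ZT5.1 in SPF WT, GF WT and GF LKO livers. In SPF LKO livers, where Cirbp was rhythmic, Carhsp1 was not called (0.20, adjusted p = 0.322). Ybx3 peaked at ZT17.3 and ZT18.7 in GF WT and GF LKO livers.

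A further list held 12 other RNA-binding proteins with glycine-rich or stress granule parts. Of these, 0, 1, 3 and 4 were rhythmic in the 4 groups, the 0 in SPF WT livers coming with 1 at an unadjusted p under 0.05 and 2 called by DESeq2. By edgeR these are 0%, 8.33%, 25% and 33.3% of the list, below the 15%, 21.2%, 26.7% and 35% of all genes. Taf15, which encodes an RNA-binding protein associated with transcription, was called in GF LKO livers (0.31, ZT1.9), and Hnrnpa2b1 and Tial1 were called rhythmic in no group. By level, 3 of 12 were higher and 0 lower in LKO within SPF and within GF livers, 1 higher and 4 lower in GF WT against SPF WT livers, and 2 higher and 3 lower in GF LKO against SPF LKO livers. The 25% called between the genotypes is near the 23.1% (SPF) and 30.8% (GF) of all genes, and 41.7% was called in either comparison of GF with SPF livers, beside 31.8% (WT) and 36.4% (LKO). Tial1, of the TIA family, was lower by -0.12 ± 0.039 in GF WT against SPF WT livers (adjusted p = 0.0158) and Hnrnpa2b1 higher by 0.12 ± 0.034 in GF LKO against SPF LKO livers (adjusted p = 0.00477).

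Over the 24 means of group and time, the genes whose log2 CPM was most like Cirbp among 11846 with a mean of at least 1 CPM were Ago4 (Pearson r of 0.90), Hs1bp3 (0.89), Zc3h6 (0.89), Serinc5 (0.89) and Mbtd1 (0.89). Ago4 encodes an Argonaute protein. The genes most like Rbm3 were Cadm4 (0.89), Wdr4 (0.87), Pnn (0.87), Srsf2 (0.86) and Trim39 (0.86), of which Srsf2 belongs to the splicing list and Pnn encodes a splicing-associated protein. The members themselves had an r of 0.12, above that of 58.6% of genes to Cirbp. These means share their libraries and the correlations are a description. Over the 72 libraries in place of the means, 1 of the 5 genes remained for Cirbp (Zc3h6) and 2 for Rbm3 (Pnn and Srsf2).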

How the data were processed

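RNA of 72 mouse livers was measured by stranded mRNA sequencing. Single-end reads were mapped by the authors to mm10 with STAR 2.6.1b, and the deposited counts per gene came from featureCounts 2.0.0 over exons of an Ensembl annotation. The counts are unnormalized, and leave out multi-mapping reads and reads shared by genes. The deposited table also gives the exon length of each gene. Reads were counted without use of strand, so reads of Rbm3 and its antisense gene cannot be told apart, and reads shared with the pseudogene Rbm3-ps may be missing. Gene symbols and coordinates came from GENCODE vM21 (GRCm38), which named 55394 of 55573 genes. The upstream sequence is from RefSeq, and the coding sequences are GENCODE transcripts linked to RefSeq. Protein sequences were not used here. 0 columns were left unused and 0 pairs of libraries were identical.

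Tests used edgeR 4.0.16 in R 4.3.3, with its filter on low counts (minimum count of 10), TMM factors and quasi-likelihood tests, adjusted by Benjamini-Hochberg at 0.05 over all genes. Each pair of groups was fitted on 36 libraries, each rhythm on 18 libraries with a 24 h cosine and sine, each rhythm difference on 36, the difference of genotype effects on 72 and each time on 12. Standard errors are the log2 fold change divided by the root of F. DESeq2 1.42.0 and limma 3.58.1 gave alternatives, and empirical JTK_CYCLE was not used here. Least squares fits used log2 CPM with a prior count of 2. Scripts were tested on simulated data. Replicates are separate mice. Depth of 17369927 to 22076113 counts gave each member 79 or more counts per library.

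The members, the gene lists, the 4 doubted libraries and the tests were chosen with earlier results of these data known. Named beside the members are the 5 genes most like each over the 24 means, 4 splicing genes and the 4 most abundant genes of each other list. Some genes that this rule names are not reported here. Alternatives covered the count test, scaling, filter, model of time, replicate block, and left-out replicates, times and libraries. Scaling by total counts was added after the data were seen.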

Additional observations from a re-analysis of the deposited data

How the results depend on the processing

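Of the values that answer a comparison, 422 were unchanged under the alternatives. For levels, unchanged means the same direction and side of the threshold. For rhythms and rhythm differences it means the same side of the threshold, without a check of peak time. For the number of times called it means the same number. Of the rest, 10 passed the threshold, 13 lost it, 5 changed sign and 32 counts of times called moved. The causes of the changes below were not tested. The level of Cirbp passed the threshold with ZT as a factor, the replicate block and total counts alone for GF WT against SPF WT (-0.35, -0.34 and -0.52) and GF LKO against SPF LKO (-0.35, -0.34 and -0.43), and with total counts alone for GF LKO against GF WT (0.45). The Cirbp genotype effect in GF minus SPF, 0.01 as reported, changed sign with ZT as a factor (-0.012), with the replicate block (-0.013) and without all doubted libraries (-0.010), and ran from -0.20 to 0.18 when 1 replicate or library was left out. The Cirbp rhythm lost its call in SPF WT with ZT as a factor (a range over the times of 1.04), without ZT6 (1.01) and without ZT18 (0.64). In GF WT it lost its call without ZT2 (0.48) and ZT18 (0.84). Its rhythm difference in GF LKO against GF WT was called with DESeq2 (0.93), no filter (0.94) and ZT as a factor (a range over the times of 1.31). That difference was not called with the replicate block (0.93, adjusted p = 0.128). With 1 replicate or library left out it ran from 0.80 to 1.035, with adjusted p from 0.102 to 0.514.

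With 1 replicate or library left out, the Cirbp rhythm ran from 0.771 to 0.995 in SPF WT, 0.81 to 1.18 in SPF LKO and 0.82 to 0.99 in GF WT, and the Rbm3 level from 0.24 to 0.47 in GF LKO against GF WT and from -0.44 to -0.20 in GF LKO against SPF LKO. The number of times called became 2 for Cirbp in GF LKO against GF WT with DESeq2, no filter and 6 libraries, 1 with DESeq2 and 2 with no filter for Cirbp in GF LKO against SPF LKO, and 0 for Cirbp in SPF LKO against SPF WT (replicate block) and in GF WT against SPF WT (6 libraries and replicate block). For Rbm3 it became 1 in GF LKO against GF WT (no filter and 6 libraries), 2 with no filter and 0 with 6 libraries in GF WT against SPF WT, and 1 in GF LKO against SPF LKO (no filter). Leaving out replicates gave 1 to 2 times for Cirbp in GF LKO against GF WT, and 0 to 1 for Cirbp in SPF LKO against SPF WT and in GF WT against SPF WT and for Rbm3 in GF LKO against GF WT and in GF WT against SPF WT.

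The replicate numbers do not pair the mice: over 18 same-numbered pairs per comparison the median correlation of deviations ran from -0.02 to 0.02, and at 0 times did all pairs exceed 0.1. DESeq2 moved list counts of rhythmic genes from 5 to 8 for splicing in GF WT, and for glycine-rich proteins from 0 to 2 in SPF WT and from 1 to 2 in SPF LKO. Counts of 79 to 608 reads per member and library and 3 mice per time limit small differences at single times.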
